A study of Mus musculus with 12 samples.

Results

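Tubulins, tektins and the enzymes that modify tubulin form a family of 60 genes in this table of 28643 gene symbols measured in sorted mouse round spermatids, and each was above 0 in at least 1 of the 12 libraries. Members were chosen by symbol alone: the alpha, beta, gamma, delta and epsilon tubulins, the gamma-tubulin complex proteins (Tubgcp), tektins (Tekt), tubulin tyrosine ligase-like enzymes (Ttll), cytosolic carboxypeptidases (Agbl), vasohibins with their partner (Vash, Svbp), katanins (Katn) and tubulin folding cofactors A to E (Tbca to Tbce), with pseudogenes left out. By role these were 8 alpha tubulins, 7 beta tubulins, 4 gamma, delta and epsilon tubulins, 5 gamma-tubulin complex proteins, 5 folding cofactors, 5 tektins, 13 Ttll enzymes, 5 carboxypeptidases, 3 vasohibin genes and 5 katanins.

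The study asked how IGF2BP3, a protein that binds N6-methyladenosine in mRNA, acts on translation in these cells. Round spermatids were sorted in the presence of cycloheximide from 8-week-old males that were either Igf2bp3+/- (the control, carrying 1 intact copy) or Igf2bp3-/- (a frameshift made with Cas9 in C57BL/6 zygotes). Per the methods, the knockout males used had impaired fertility, and some came from matings of knockout parents. RNA-seq measured a part of each extract as total RNA, and RNC-seq measured the mRNAs in the polysome fractions of a sucrose gradient. There were 3 replicates in each of the 4 groups and 12 libraries in all.

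Microtubules are hollow polymers of alpha and beta tubulin pairs, which reach their folded state with the help of the cofactors and are nucleated by gamma-tubulin complexes. A spermatid builds 2 large microtubule structures, the manchette that shapes the head and the axoneme that drives the flagellum, and tektins run as filaments inside the doublet microtubules of the latter. The acidic tails of tubulin are edited after assembly: vasohibins with SVBP remove a terminal tyrosine, TTLL enzymes add glutamate or glycine side chains, carboxypeptidases take glutamates off, and katanins sever microtubules whose tails carry such marks.

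Values were FPKM, a read density scaled to transcript length and to library size, so levels can be set side by side between genes. Read depth is unknown. It was estimated from the most common value of FPKM times length among genes with a single annotated transcript. By this estimate Igf2bp3-/- RNA-seq replicate 1 was the deepest library, set to 1, and the other 11 lay at 0.38 to 0.55 of it. The frameshifted gene Igf2bp3 itself was listed at 33.4 to 38.6 FPKM in Igf2bp3+/- and 31.4 to 32.5 in Igf2bp3-/- RNA-seq, and at 31.4 to 43 and 40.6 to 43.1 in RNC-seq, and a frameshift need not lower an mRNA. Over the 6 RNA-seq libraries, markers of round spermatids summed to between 1009 and 1453 FPKM, those of elongating spermatids to between 9406 and 12112, those of spermatocytes to between 296 and 425, those of spermatogonia to at most 11.5 and those of peritubular cells to at most 2.5. Markers of Sertoli cells, of Leydig cells and of macrophages and blood were higher in every knockout than in every control RNA-seq library. The sum over 7 Sertoli genes was 3.76 to 4.58 FPKM in the control and 7.27 to 8.05 in the knockout, that over 7 Leydig genes 14.6 to 21.5 and 46.4 to 52.9, and that over 8 macrophage and blood genes 7.44 to 9.01 and 14.7 to 16. Of these genes 1, 3 and 2 passed the adjusted limit used below. Igf2bp3-/- RNC-seq replicate 2 stood apart from the other polysome libraries. Over 18414 genes, its log2 differences from the mean RNA-seq value of its genotype had an SD of 0.639, against 0.857 to 1.09 in the other 5, and over 55 members an SD of 0.448 against 0.559 to 0.72. Several counts and the changes of Ttll3, Ttll5, Ttll10 and Agbl5 are given with and without it, and other results only with it.

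The ends of the tubulin coding sequences are shown because they encode the tails on which the modifying enzymes act. Each is the last 30 bases of the coding sequence of a transcript in the GENCODE M21 annotation of GRCm38, the stop codon included, with the last sense codon in capitals.
Tuba3a: gcagaggcagaagaaggggaggagTACtga
Tuba3b: gcagaggcagaagaaggggaggagTACtga
Tuba1c: gaaggagacgatgagggtgaggaaTATtaa
Tuba4a: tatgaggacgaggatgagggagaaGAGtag
Tuba8: gaagaagagaatgagggggaggaaTTTtaa
Tubal3: gattatgaagaagtgggtctgagtTTCtga
Tubb4b: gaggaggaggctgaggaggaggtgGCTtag

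TAC and TAT stand for tyrosine, the residue that vasohibins remove and that the ligase TTL puts back, and Tuba1a and Tuba1b also end in a tyrosine codon. Tuba4a ends in a glutamate codon, the form that other alpha tubulins reach only after their tyrosine is removed, and Tuba8 and Tubal3 end in phenylalanine codons. Tuba3a lies on chromosome 6 at chr6:125278274-125286042 on the minus strand and Tuba3b at chr6:145615757-145621479 on the plus strand. Their coding sequences differed at 41 of 1353 bases, 97.0% identity, with no change in the encoded protein, and the 30 bases shown were identical. Reads of the pair can therefore be shared between them, and their sum is firmer than either value. The same holds for Tuba1a, Tuba1b and Tuba1c, which also resemble pseudogenes, for Tubb2a and Tubb2b, for Tubb4b and 2 pseudogenes, and for Ttll2, whose transcript has copies at 99.03% and 99.14% identity.

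Abundance within the family was uneven. By mean RNA-seq FPKM over the 6 libraries, 15 members were at 100 or above, 27 between 10 and 100, 6 between 1 and 10, and 12 under 1. Together the members took 1.62% to 1.88% of the summed FPKM of an RNA-seq library and 0.972% to 1.4% of an RNC-seq library. Tuba3a was the most abundant, at 1763, 1779 and 1810 FPKM in the control and 1718, 2051 and 2417 FPKM in the knockout RNA-seq libraries. Tuba3b followed at 1501, 1608 and 1594 FPKM in the control and 1541, 1765 and 1845 FPKM in the knockout. For both genes the genotypes overlapped. Tubb4b, a beta tubulin found in cilia (chr2:25222160-25224702, minus strand), was at 954, 1029 and 1017 FPKM in the control and 1160, 1258 and 1202 FPKM in the knockout RNA-seq libraries, without overlap.

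Nearly all alpha-tubulin RNA came from the Tuba3 pair. Its share of the summed alpha-tubulin FPKM was 92.2% ± 0.205 in Igf2bp3+/- and 92.9% ± 0.453 in Igf2bp3-/- RNA-seq (SD, n = 3 in each group here and below), and 91.6% ± 0.816 and 90.03% ± 2.46 in RNC-seq. Tuba4a, the isotype with no terminal tyrosine codon, made up 3.45% ± 0.076 and 3.04% ± 0.229 of alpha-tubulin FPKM in RNA-seq, and Tuba8 made up 3.14% ± 0.219 and 2.96% ± 0.15. Up to 37.26% of the exonic bases of Tuba4a overlap Stk16 on the opposite strand, and since strand use in counting is not stated its value is uncertain over that part. Tubb4b took 97.4% ± 0.186 of the beta-tubulin FPKM in control and 98.2% ± 0.128 in knockout RNA-seq. Tubb6 supplied 2.06% ± 0.201 and 1.19% ± 0.0432, and the other 5 beta tubulins together 0.527% ± 0.0213 and 0.584% ± 0.119. Tubb1, the beta tubulin of platelets, was listed at 0 in 10 of the 12 libraries.

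Tektins came next. Summed over the 5, they reached 1268 ± 34.7 FPKM in the control and 1596 ± 176 in the knockout RNA-seq libraries. The summed beta tubulins were at 1026 ± 40.8 and 1228 ± 49.5. Tekt1 was highest, at 404, 447 and 411 FPKM in the control RNA-seq libraries, and Tekt5 lowest, at 77.2, 86.8 and 88.6 FPKM. Among the modifying enzymes, Ttll13 (228, 236 and 239 FPKM), a glutamylase that lengthens side chains, Ttll10 (250, 251 and 261 FPKM), which lengthens glycine chains, and Agbl5 (194, 228 and 221 FPKM), the carboxypeptidase that removes branch-point glutamates, led in control RNA-seq. Of the folding cofactors, Tbca, which holds beta tubulin, and Tbcc, which with cofactor D triggers release of the finished pair, were above 90 FPKM in every RNA-seq library. Tubd1 (17.5, 19.0 and 20.2 FPKM) and Tubg1 (11.4, 12.5 and 12.6 FPKM) led the minor tubulins, and Tubgcp2 (32.4, 34.6 and 36.9 FPKM) the gamma-tubulin complex. Vash2 was at 24.9, 25.6 and 27.6 FPKM in control RNA-seq, whereas Vash1 was at 0.713, 0.886 and 1.02 FPKM.

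**Figure D1:**
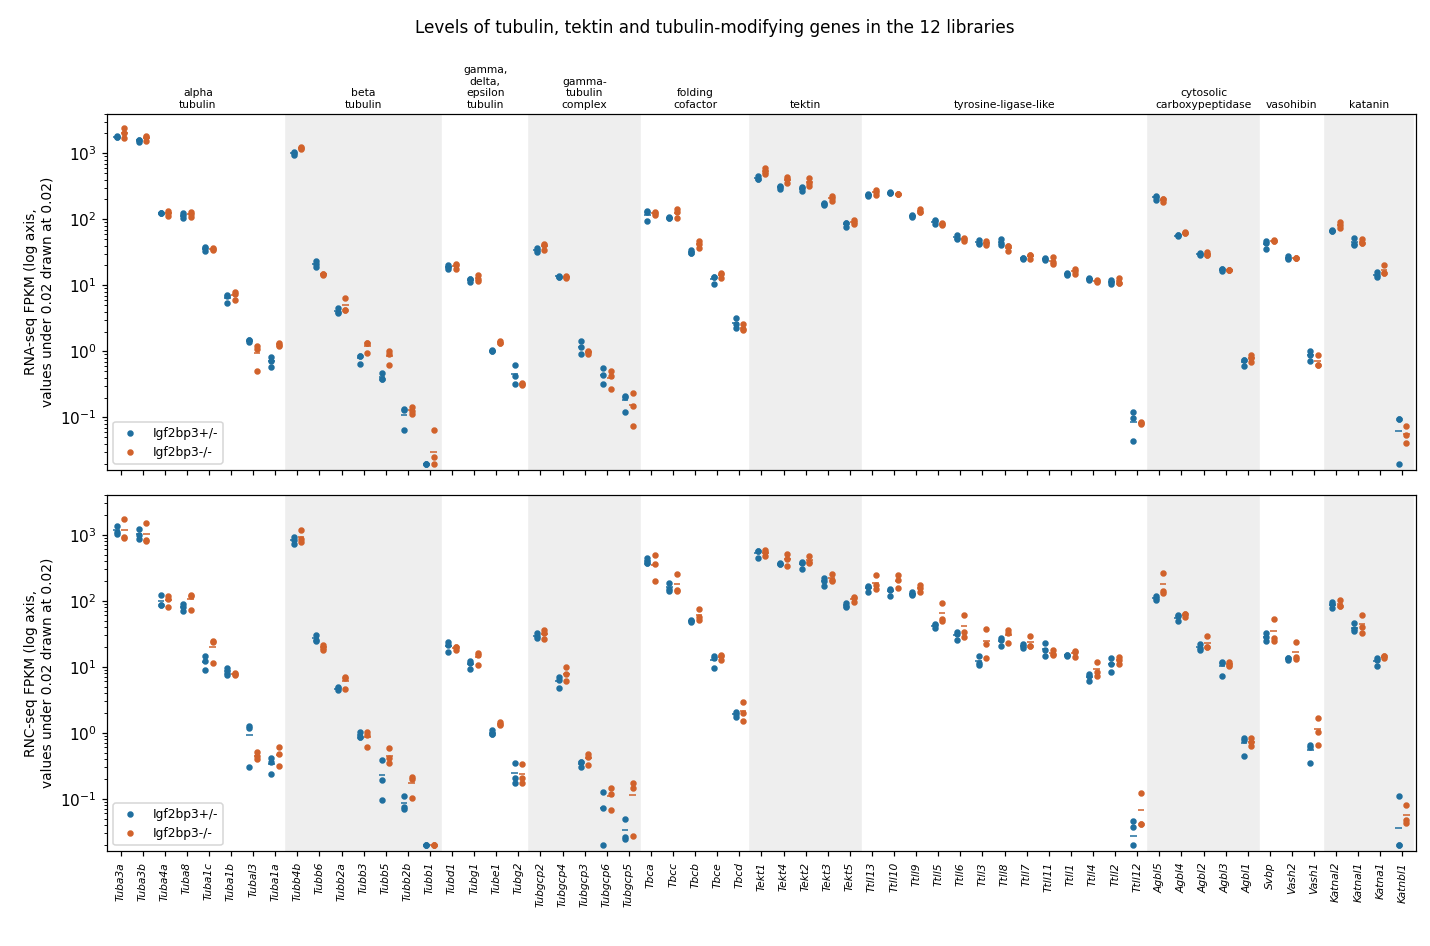
FPKM of 59 of the 60 members in RNA-seq (top) and RNC-seq (bottom) on a log axis, with 1 point per library, a short line at the mean of 3, blue for Igf2bp3+/- and orange for Igf2bp3-/-, and members ordered by role and mean level. The Tuba3 pair and Tubb4b lie at the top, the tektins and the leading Ttll and Agbl genes below them, and 12 members under 1 in mean RNA-seq FPKM.

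Polysome loading, the log2 ratio of RNC-seq to RNA-seq, split the family by role in Igf2bp3+/- spermatids. The folding cofactors Tbca, Tbcb and Tbcc were higher on polysomes than in total RNA, most alpha tubulins and Ttll enzymes were lower, and the 5 tektins had a median of 0.25 with no call. Both assays were fitted together with limma on log2(FPKM + 0.1), a scale that understates the change of low genes, and p-values were adjusted by the Benjamini-Hochberg method over all 18414 genes with a limit of 0.05. Of the 60 members 55 were tested, and Tubb1, Ttll12, Katnbl1, Tubgcp5 and Tubgcp6 were too low. In the control, 19 members were lower and 4 higher on polysomes, that is 34.5% and 7.27% of those tested, whereas 25.2% of all genes were called lower and 18.6% higher. The median of the members was -0.28 and that of all genes -0.10. FPKM is scaled to the reads of a library and does not add up to a fixed sum. Summed FPKM was 459762 to 479787 in control RNA-seq and 578131 to 624341 in control RNC-seq. Loading is therefore relative, and a ratio somewhat above 1 need not be a larger share of the summed FPKM on polysomes. After the libraries were shifted to a common median over genes (median centring), the median of all genes moved by 0.169 and the split became 13 lower and 11 higher, so the lesser ratios below depend on that scale. The calls lost were Tuba3a, Tuba3b, Tuba8, Ttll11, Ttll13 and Agbl2, and those gained Tuba1b, Tubb6, Ttll9 and 4 tektins. Since each RNA-seq input was, per the methods, a part of the extract used for RNC-seq, loading was also fitted with the replicate number of each genotype as a block: in the control 4 calls were then lost (Tuba3a, Ttll11, Tbcc and Katnal2, with limma adjusted p-values of 0.0608, 0.0536, 0.0537 and 0.0950) and 1 was gained, Svbp (0.0371).

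Tbca was the best loaded member. It was at 127, 134 and 93.6 FPKM in control RNA-seq and at 440, 366 and 376 FPKM in control RNC-seq, without overlap. Its log2 loading was 1.75 ± 0.26 (SE, limma adjusted p = 0.000150), a ratio of means of 3.33. Tbcb, which binds alpha tubulin, went from 30.4, 34.7 and 30.9 FPKM in total to 47.8, 51.3 and 49.0 FPKM in polysomal RNA (log2 0.63 ± 0.15, limma adjusted p = 0.0052), and 22.54% of its exonic bases overlap Polr2i on the opposite strand. Tbcc went from 105, 106 and 108 to 149, 188 and 141 FPKM (log2 0.58 ± 0.21, limma adjusted p = 0.0367), a call that was lost without any of 5 control libraries (all but RNC-seq replicate 3). The large cofactors differed from these: Tbce had a log2 loading of 0.02 ± 0.18 and Tbcd of -0.46 ± 0.23, and neither passed the limit.

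Among the 8 alpha tubulins 5 were lower on polysomes in the control. Tuba1c was lowest, at 33.2, 36.3 and 38.6 FPKM in total and 8.90, 14.4 and 12.4 FPKM in polysomal RNA (log2 -1.61 ± 0.26, limma adjusted p = 0.000260), and Tuba1a, with under 1 FPKM, was at -0.90. Tuba3a went from 1763, 1779 and 1810 FPKM in total to 1098, 1028 and 1372 in polysomal RNA, at log2 -0.62 ± 0.23 (limma adjusted p = 0.0397), and Tuba3b was at -0.64 ± 0.21 (adjusted p = 0.0255). Neither Tuba3 call held in the control after median centring. As listed, Tuba1b alone among the tyrosine-ending isotypes had a log2 loading above 0. Its 5.48, 6.87 and 7.23 FPKM in total and 9.70, 7.59 and 8.17 FPKM in polysomal RNA did not overlap. The log2 loading of Tuba1b, 0.38 ± 0.17, missed the limit (limma adjusted p = 0.0853) and passed it after median centring, at 0.54 (limma adjusted p = 0.0174). Since reads can be shared among Tuba1a, Tuba1b and Tuba1c, their separate values are uncertain. The loading of their sum was not tested, so the contrast between Tuba1b and Tuba1c is not firm. On the deposited scale no beta tubulin was called in the control. Tubb4b had a log2 loading of -0.28 ± 0.16, and Tubb6 one of 0.36 ± 0.14 (limma adjusted p = 0.0519) that was called after median centring, at 0.53 (limma adjusted p = 0.0022).

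Of the Ttll enzymes 8 of 12 tested were lower on polysomes and none was higher by limma, with an adjusted or an unadjusted p. Ttll3, which starts glycine chains, was the lowest of all members at log2 -1.87 ± 0.27 (limma adjusted p = 0.000133): it was at 48.4, 43.2 and 42.2 FPKM in total and 10.7, 14.5 and 11.6 FPKM in polysomal RNA, a ratio of means of 0.275. The other glycylases were also lower, Ttll10 at -0.88 ± 0.16 and Ttll8 at -0.87 ± 0.18. Ttll5, a glutamylase that starts side chains and is known to be needed for intact sperm tails, went from 84.1, 96.7 and 94.8 to 38.3, 42.2 and 45.2 FPKM, at log2 -1.13 ± 0.20 (limma adjusted p = 0.000495). The glutamylases Ttll4 (-0.85), Ttll6 (-0.84), Ttll13 (-0.62) and Ttll11 (-0.47) were lower too. Ttll1, the catalytic subunit of a glutamylase complex, had a log2 loading of 0.00 ± 0.14, with 15.1, 15.4 and 14.5 FPKM in total and 15.3, 14.5 and 15.2 FPKM in polysomal RNA. Ttll9 was at 0.19 ± 0.13 (limma adjusted p = 0.2497) and passed after median centring, at 0.36.

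The enzymes that undo these marks were split in the same comparison. Agbl5 (-0.94 ± 0.21, limma adjusted p = 0.0028), Agbl3 (-0.79 ± 0.17) and Agbl2 (-0.59 ± 0.16) were lower on polysomes, and Agbl4 was at -0.04 ± 0.12, with 55.4, 58.2 and 57.0 FPKM in total and 58.4, 48.6 and 59.8 FPKM in polysomal RNA. Vash2 went from 24.9, 25.6 and 27.6 FPKM in total to 12.6, 13.6 and 13.6 in polysomal RNA (-0.97 ± 0.19, limma adjusted p = 0.0011). Its partner Svbp was at -0.57 ± 0.23 (adjusted p = 0.0631). From the gamma-tubulin complex, 2 genes were lower, Tubgcp3 at -1.50 ± 0.24, from a total level of 0.910 to 1.43 FPKM, and Tubgcp4 at -1.19 ± 0.19, from 13.6 to 13.9 FPKM in total to 4.80, 6.94 and 6.34 in polysomal RNA. Of the exonic bases of Tubgcp4, 26.05% overlap Trp53bp1 and Zscan29 on the opposite strand. Katnal2, a katanin known for its part in remodelling spermatids, was higher at 0.37 ± 0.14 (limma adjusted p = 0.0425). That call was lost without any of 6 libraries in turn, among them 5 of the 6 control libraries.

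All 5 tektins had a log2 loading above 0 in the control, from 0.04 to 0.31, and none passed the limit by limma at either the adjusted or the unadjusted p of 0.05. Tekt1 was at 404, 447 and 411 FPKM in total and 563, 439 and 566 FPKM in polysomal RNA (0.31 ± 0.15, limma adjusted p = 0.1036). After median centring 4 of the 5 were called higher, Tekt1 at 0.48, Tekt2 at 0.47, Tekt4 at 0.42 and Tekt3 at 0.36. Summed alpha-tubulin FPKM was 3636 ± 88.7 in total and 2382 ± 369 in polysomal RNA of the control, and summed tektin FPKM was 1268 ± 34.7 and 1522 ± 155.

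**Figure D2:**
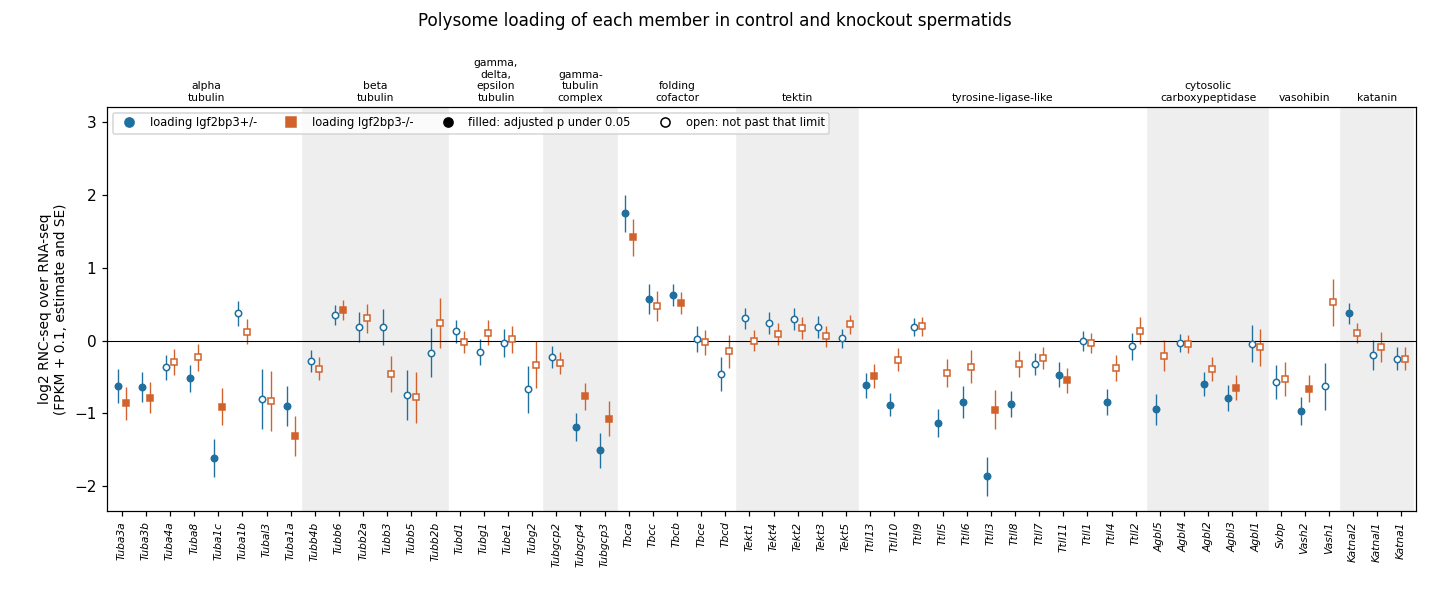
Polysome loading of all but 1 of the tested members as the log2 ratio of RNC-seq to RNA-seq (FPKM + 0.1), with SE bars, circles for Igf2bp3+/- and squares for Igf2bp3-/-, filled where the adjusted p is under 0.05. Tbca stands highest at 1.75 and Ttll3 lowest at -1.87 in the control, and the tektins lie between 0.00 and 0.31 in both genotypes.

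Loading followed transcript length among the members. Against the length of the longest annotated transcript, log2 loading in the control had a Pearson r of -0.539 (log2 length) and a Spearman rho of -0.545 over 55 members, and -0.574 and -0.586 over the 48 with a mean RNA-seq FPKM of at least 1. These points share libraries, and the longest annotated transcript need not be the one expressed, so the values are a description across genes. Tbca has the shortest transcript of the family, 633 bases, and the other called folding cofactors, Tbcc and Tbcb, have 1164 and 1416. Tektin transcripts span 1447 to 1803 bases. Svbp, at 832 bases and a log2 loading of -0.57, and Tuba1c, at 1982 bases and -1.61, lie below other members of their length. In the knockout the Spearman rho was -0.374 over the 55.

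**Figure D3:**
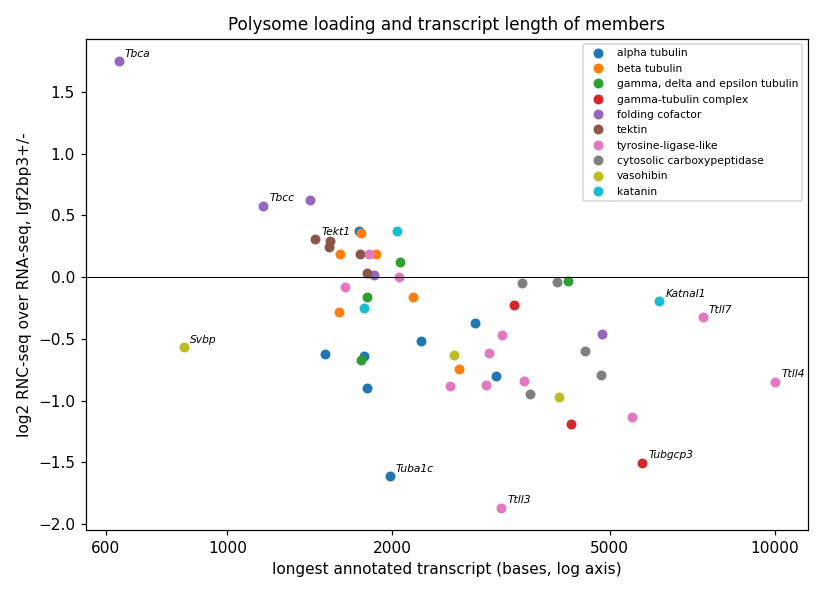
Log2 RNC-seq over RNA-seq in Igf2bp3+/- against the longest annotated transcript of 54 of the 55 tested members (bases, log axis), 1 point per member, coloured by role. Tbca (633 bases, 1.75) sits at the upper left, and Ttll3 at -1.87 is the lowest point.

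In Igf2bp3-/- spermatids 11 members were lower and 3 higher on polysomes, 20% and 5.45% of those tested, beside 14% and 12.5% of all genes. All 11 that were lower were also lower in the control, and 2 of the 3 that were higher (Tbca and Tbcb) were also higher there, while the third, Tubb6, was at 0.42 ± 0.14 (limma adjusted p = 0.0398), beside the 0.36 that narrowly missed the limit in the control. The Tubb6 call was lost with the replicate block (limma adjusted p = 0.0849) and in a fit over the 6 knockout libraries (0.0876), and the block also ended those of Tbcb (0.0530) and Ttll13 (0.0605). Tbca was at 362, 198 and 495 FPKM in knockout polysomal RNA and 117, 128 and 123 FPKM in total, at log2 1.42 ± 0.26 (limma adjusted p = 0.0015). The lowest of the 3 came from replicate 2. Tuba3a was at 1737, 931 and 877 FPKM and Tuba3b at 1487, 828 and 797 FPKM in knockout polysomal RNA, with replicate 1 the highest for both. The 8 members that were called lower in the control alone were Tuba8, Agbl2, Agbl5, Ttll4, Ttll5, Ttll6, Ttll8 and Ttll10, and the difference between genotypes passed the limit in none of them, nor in Tubb6. The knockout count depended on single libraries: without RNC-seq replicate 2 it was 22 (18 lower and 4 higher), without RNC-seq replicate 3 it was 7, and without RNA-seq replicates 1, 2 and 3 in turn it was 8, 7 and 7. The calls over all genes moved in the same directions. They numbered 4886 in the main fit, 6227 without RNC-seq replicate 2 and 3257 without RNC-seq replicate 3. Without RNA-seq replicates 1, 2 and 3 in turn they numbered 3132, 3089 and 3623. Without RNC-seq replicate 1 they numbered 3783. In that fit 3 members were higher and 14 lower with an unadjusted limma p under 0.05, beside 4 and 16 in the main fit.

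Between genotypes no member passed the adjusted limit in total RNA. Of 57 tested 36 were above 0, with a median log2 change of 0.08. Over 20352 genes 56.2% were above 0, the median was 0.05, and 0.197% were called higher and 0.059% lower. Before adjustment, 12 members (21.1%) were higher and 3 (5.26%) lower by limma with p under 0.05, beside 10.4% and 5.32% of all genes. With a change over 1.5-fold required as well, 2 were higher and 1 lower, beside 2.92% and 2.53% of all genes. All 3 knockout values lay above all 3 control values for 13 members (22.8%) and below them for 5 (8.77%), beside 14.1% and 8.68% of all genes.

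Tubb6, a broadly expressed beta tubulin (chr18:67390717-67402749, plus strand), had the smallest p. It was at 21.1, 23.1 and 19.0 FPKM in control and 14.5, 14.6 and 14.7 FPKM in knockout RNA-seq, so that every knockout library lay below every control library. Its log2 change was -0.52 ± 0.10 (limma adjusted p = 0.124), and the adjusted p ranged from 0.0661 to 0.429 over the alternatives. Polysomal RNA gave the same order, with 30.6, 24.9 and 25.7 FPKM in the control and 21.5, 19.3 and 18.1 in the knockout and a log2 change of -0.46 ± 0.20 (limma adjusted p = 0.762). Tubb4b, in contrast, had a log2 change of 0.27 ± 0.08 in total RNA (limma adjusted p = 0.209).

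Tektins were the role with the highest median difference in total RNA, at 0.33 over 5 members, all above 0. Tekt4 was at 285, 304 and 323 FPKM in the control and 349, 404 and 438 in the knockout, without overlap, at log2 0.38 ± 0.10 (limma adjusted p = 0.187). The genotypes did not overlap either for Tekt1 (0.34), Tekt2 (0.33) and Tekt3 (0.29), whose adjusted p lay between 0.205 and 0.230, and did overlap for Tekt5 (0.11). All 8 round spermatid markers tested were also above 0 in the knockout, with a median of 0.263 and summed levels of 1009 to 1169 FPKM in the control and 1259 to 1453 in the knockout. Of 8 spermatocyte markers 7 were above 0 (median 0.0895), and of 8 elongating spermatid markers 2 were (median -0.102), with overlapping sums in both lists. In a bulk sample more cells of a type and more RNA per cell cannot be told apart, and the part of stage composition in the tektin values was not tested. In polysomal RNA the tektin median was 0.21 and no tektin reached an unadjusted p under 0.05.

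Some low members typical of other cells also had an unadjusted p under 0.05. Tuba1a, typical of neurons and dividing cells, was at 0.703, 0.836 and 0.578 FPKM in control and 1.23, 1.27 and 1.34 in knockout RNA-seq (log2 0.78 ± 0.19, limma adjusted p = 0.167). Tubb5, a beta tubulin of somatic cells, was at 0.387, 0.468 and 0.378 FPKM in the control and 0.617, 1.02 and 0.917 in the knockout (log2 0.88 ± 0.24, limma adjusted p = 0.194), and Tubb3, the beta tubulin of neurons, was at 0.55 ± 0.22. Other less abundant tubulins did not rise in this way. Tubb6 was at -0.52, Tuba1c at -0.02, Tuba1b at 0.13, Tubb2a at 0.24 and Tubb2b at 0.14, all but Tubb6 with an unadjusted limma p over 0.05. Tuba1a, Tubb5 and Tubb3 moved beside the Sertoli, the Leydig and the macrophage and blood markers. Of those tested, 3 of 5, 6 of 6 and 8 of 8 were above 0 in knockout RNA-seq (medians 0.256, 1.15 and 0.473). None of those in the table was at 0 in every library. Of 5 peritubular markers tested 2 were above 0 (median -0.298), and of 7 spermatogonia markers 4 were (median 0.0284). The part of any of these cells in the Tuba1a, Tubb5 and Tubb3 values was not tested. Tbcb was at 30.4, 34.7 and 30.9 FPKM in the control and 37.3, 41.7 and 46.7 in the knockout (log2 0.38 ± 0.11, limma adjusted p = 0.198). On the lower side, Ttll8 was at -0.26 ± 0.11 and Tubal3 at -0.65 ± 0.28, with limma adjusted p-values of 0.308 and 0.318. The most abundant members, Tuba3a (0.20 ± 0.12) and Tuba3b (0.13 ± 0.10), did not reach an unadjusted p under 0.05.

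In polysomal RNA no member passed the adjusted limit, beside 0.0787% of 19051 genes called higher and 0.0367% called lower, and the smallest adjusted p of a member was 0.735. Of 55 members 45 were above 0, beside 65.3% of all genes, with a median of 0.21 against 0.13 over all genes. After median centring 38 members were above 0 with a median of 0.09. Before adjustment 6 (10.9%) were higher and 1 (1.82%) lower with p under 0.05, beside 5.36% and 1.12% of all genes. After median centring 1 was higher and 1 lower, and without knockout RNC-seq replicate 2, or without control RNC-seq replicate 1, no member was called either way by limma at this unadjusted limit. Without each of the other 4 RNC-seq libraries in turn 3 to 8 were higher. With over 1.5-fold required as well, 5 were higher and none lower, beside 4.73% and 1.06% of all genes. The groups were apart, with the knockout above, for 7 members (12.7%) and, with the knockout below, for 1 (1.82%), beside 9.44% and 1.85% of all genes.

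The 5 smallest p-values belonged to modifying enzymes, 4 of which were called lower on polysomes in the control. In all, 19 of the 55 members tested were called so. Both comparisons use the 3 control RNC-seq libraries, so a low value there enters both, and the overlap is not separate evidence. Ttll3 was at 10.7, 14.5 and 11.6 FPKM in control and 22, 37.5 and 13.7 in knockout RNC-seq (log2 0.88 ± 0.32, limma adjusted p = 0.735). Ttll10 was at 120, 150 and 147 FPKM in the control and 205, 246 and 156 in the knockout (0.52 ± 0.22, limma adjusted p = 0.756). For Ttll10 the genotypes were apart, and for Ttll3 replicate 3 of the knockout lay within the control range. Ttll5 was at 38.3, 42.2 and 45.2 FPKM in the control and 53.6, 93.9 and 50.0 in the knockout (0.59 ± 0.25), and Agbl5 at 102, 112 and 120 FPKM and 139, 264 and 132 FPKM (0.61 ± 0.26), each with an adjusted p of 0.756 by limma. In all 4 genes knockout replicate 2, the library that stood apart, was the highest. Without it the log2 change was 0.51 for Ttll3, 0.37 for Ttll10, 0.31 for Ttll5 and 0.29 for Agbl5, and none of the 4 reached an unadjusted p under 0.05. Vash1, under 2 FPKM in every library, was at 0.354, 0.604 and 0.662 FPKM in the control and 1.68, 1.04 and 0.659 in the knockout (0.89 ± 0.38, limma adjusted p = 0.756), with an overlap, and its highest library was replicate 1.

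The translational efficiency difference, the genotype change in polysomal RNA beyond that in total RNA, passed the adjusted limit for no member, beside 0.00543% of 18414 genes called higher and 0% called lower. The same 5 enzymes had the smallest p-values, and this comparison shares its libraries with the ones above. Before adjustment 6 of 55 members were higher (10.9%) and none lower at p under 0.05 by limma, beside 5.54% and 1.58% of all genes, and after median centring 1 was higher and 3 were lower. The count of 6 ranged from 1 (without control RNC-seq replicate 1) to 11 (without knockout RNC-seq replicate 3) as single libraries were left out, and was 4 without knockout RNC-seq replicate 2. With over 1.5-fold required as well, 5 were higher and none lower, beside 5.19% and 1.37% of all genes. Ttll10 differed by 0.62 ± 0.22 (limma adjusted p = 0.686), with a ratio of mean RNC-seq to mean RNA-seq FPKM of 0.546 in the control and 0.848 in the knockout. The ratios were 0.275 and 0.560 for Ttll3, 0.456 and 0.764 for Ttll5, 0.519 and 0.911 for Agbl5, and 0.618 and 1.58 for Vash1. Without knockout RNC-seq replicate 2 the differences were 0.46 for Ttll10, 0.54 for Ttll3, 0.40 for Ttll5 and 0.42 for Agbl5. Over all 55 members 31 were above 0 with a median of 0.06, beside 55.6% above 0 and a median of 0.06 over all genes. After median centring 22 members were above 0, with a median of -0.07, and that of all genes was -0.07. Over the 12 Ttll enzymes tested 10 were above 0 with a median of 0.34. Without knockout RNC-seq replicate 2, 7 of them were above 0 with a median of 0.19. Over the 5 tektins 1 was above 0, with a median of -0.13. Ttll8 was the sixth member, at 0.55 ± 0.25 (limma adjusted p = 0.692), and 5.61% of the exonic bases of Ttll3 and 9.6% of those of Agbl5 overlap Arpc4 and Ost4.

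**Figure D4:**
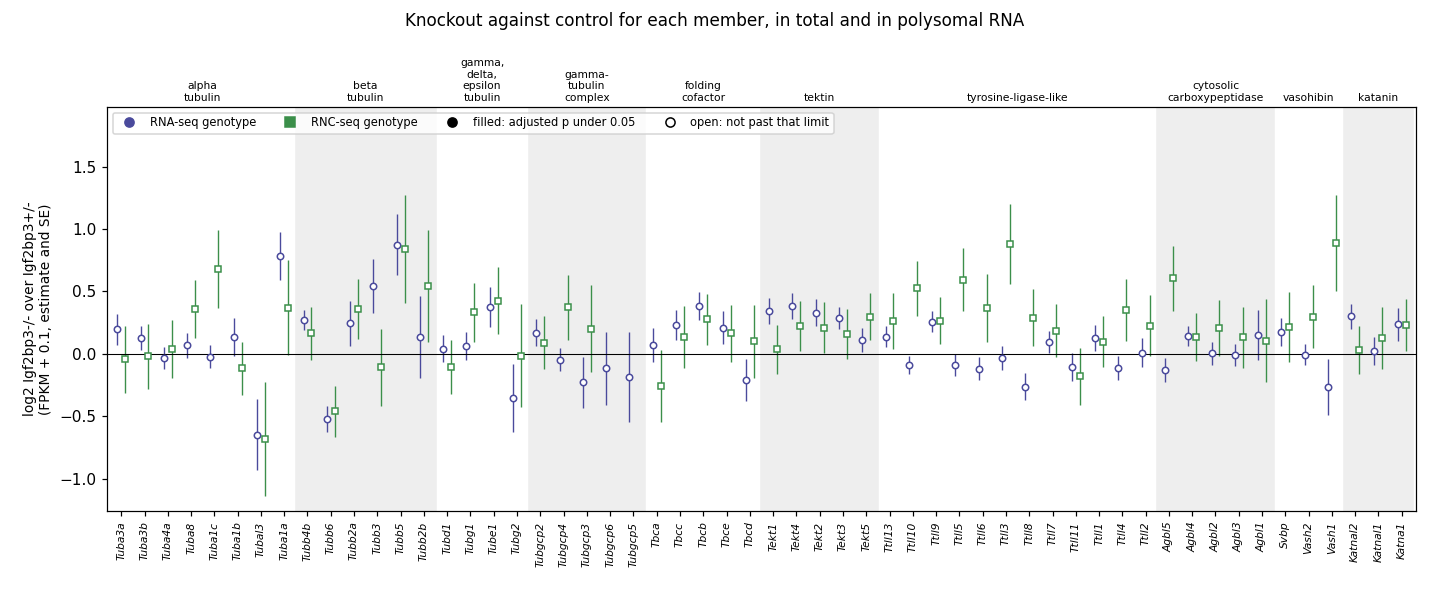
Log2 change from Igf2bp3+/- to Igf2bp3-/- of all but 1 of the tested members in RNA-seq (circles) and RNC-seq (squares), on log2(FPKM + 0.1) with SE bars. All symbols are open, since no member passed an adjusted p of 0.05, with Tubb6 low in both assays and Ttll3, Ttll5, Ttll10 and Agbl5 above 0 in RNC-seq alone.

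**Figure D5:**
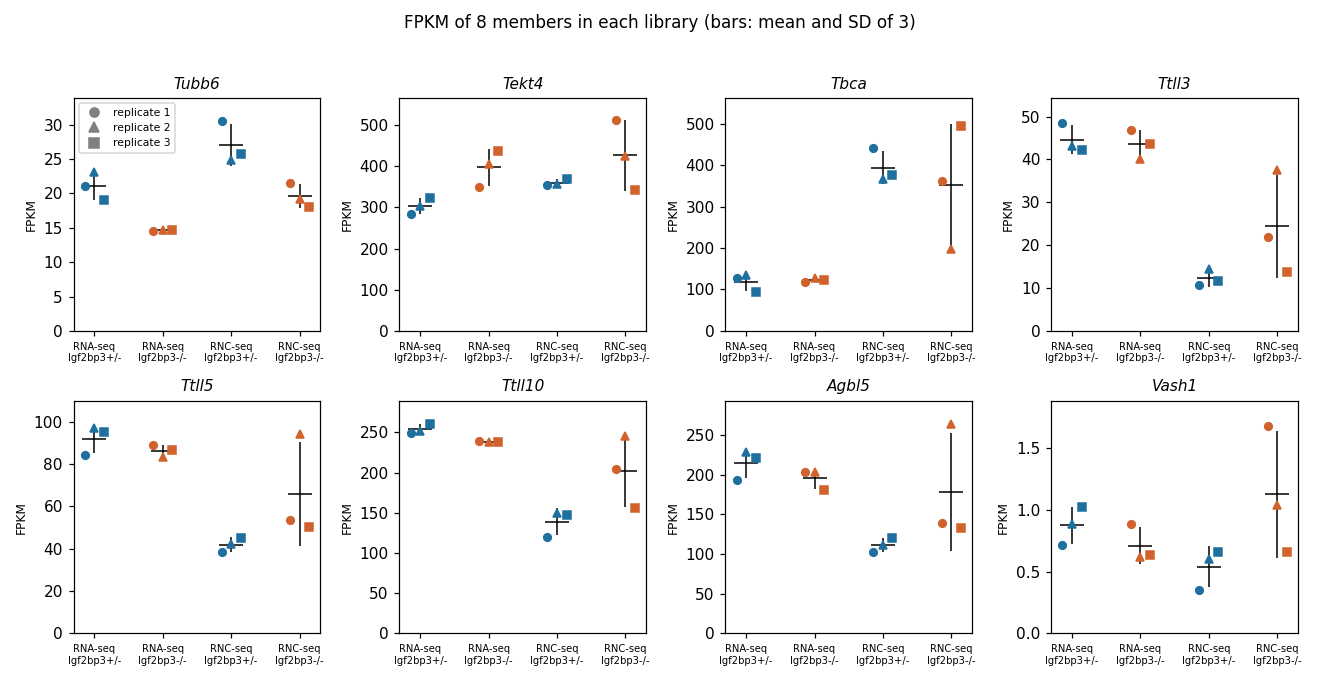
FPKM of 8 members in each library, with 3 points a group marked by replicate and bars for the mean and SD (n = 3), on linear axes from 0. Tubb6 is lower in every knockout library of both assays, and knockout RNC-seq replicate 2 (triangle) is the highest for Ttll3, Ttll5, Ttll10 and Agbl5 and the lowest, at 198, for Tbca.

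Genes of the same pathways that the symbol rule leaves out were listed for comparison, 20 in all, of which 18 were in the table. No genotype comparison called any of them by limma. Before adjustment, with limma p under 0.05, 3 of 17 were higher and 1 was lower in total RNA, beside 10.4% and 5.32% of all genes. In polysomal RNA 2 of 16 were higher, beside 5.36% of all genes. In control loading 6 of 16 were lower and 3 higher, beside 25.2% and 18.6% of all genes. The lower ones included Tpgs2, a subunit of a glutamylase complex, at -1.97, Spast, a severing enzyme, at -1.07, Atat1, the tubulin acetylase, at -0.88, and Agtpbp1, a carboxypeptidase that trims glutamate chains, at -0.77. The higher ones included Tpgs1, another glutamylase subunit, at 0.91, and Mzt2, a gamma-tubulin complex protein, at 0.55. Ttl, the ligase that restores tyrosine, had a mean of 0.0039 FPKM in control RNA-seq and was not tested.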

How the data were processed

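FPKM of 12 libraries from sorted round spermatids (Igf2bp3+/- and Igf2bp3-/-, RNA-seq and RNC-seq, 3 replicates each) were analysed. The authors deposited FPKM per gene symbol: per the methods, Trim Galore 0.6.6, HISAT2 (against GRCm38) and StringTie 2.1.7 were used for trimming, alignment and quantification. The annotation release and the use of strand are not stated, and the labels and the methods name different library kits and sequencers. Of 28668 rows, 25 whose symbols had turned into dates (0.0995% of FPKM) were left out. All 60 members matched GENCODE M21, from which positions, lengths, overlaps and coding ends were taken, and near-identical copies (at least 95% identity over 50% of a transcript) were found with BLAST 2.17.0.

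Members, gene lists and tests were chosen with earlier results of these data known. Tests ran in limma 3.58.1 (R 4.3.3) on log2(FPKM + 0.1) (intensity trend, two-sided, Benjamini-Hochberg over all genes, limit 0.05) among genes with a mean FPKM above 0.1. Genotype was tested over the 6 libraries of each assay, and loading and the translational efficiency interaction over all 12. Scripts were tested on simulated data. The depth is unknown, so no counting interval was computed, and p-values measure the spread of 3 samples a group, each from separate mice per the methods. Members named in the text were the 5 with the smallest p in each genotype comparison, the 5 highest and 5 lowest in control loading with a mean RNA-seq FPKM of at least 1, and the 3 most abundant of each role, and others named beside them were chosen after their values were seen. A member and a listed gene enter the counts but are not reported here by name. Alternatives were a pseudocount of 1, no filter, median centring, a replicate block, leaving out each library, another set of libraries in the fit and another call rule.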

Additional observations from a re-analysis of the deposited data

How the results depend on the processing

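No member passed the adjusted limit in a genotype comparison of total RNA, polysomal RNA or translational efficiency under a pseudocount of 1, no filter, median centring, the replicate block, a fit over all 12 libraries (total and polysomal RNA) or without any library in turn (0 to 0). With a call of an unadjusted p under 0.05 and over 1.5-fold, 3 of 57 members were called in total RNA (beside 2.92% of all genes higher and 2.53% lower), 5 of 55 in polysomal RNA (4.73% and 1.06%) and 5 of 55 in translational efficiency (5.19% and 1.37%). In control loading the count of 23 ranged from 16 to 25 without a library, and was 24 after median centring and 20 with the replicate block. In knockout loading the count of 14 ranged from 7 to 22 without a library and was 9 in a fit over the 6 libraries of that genotype, a fit with fewer samples. Deviations of same-numbered libraries from their group means correlated between -0.0583 and 0.154, not all over 0.1, so the data did not show the numbers to pair libraries, although the RNA-seq input came from the same extract per the methods, and the replicate block gave 11 calls in knockout loading. Of 35 values of named members, none changed sign in 530 recomputed values, 26 fell short of the limit and 3 newly passed it. Whole reads could not be recovered from FPKM, so members under 1 FPKM have an unknown counting error.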
